A study of Homo sapiens with 4 samples.

Results

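Genes of the circadian clock were examined in RNA-seq libraries of cells labelled HepG2, an established human hepatoma line, made into knockdown lines with shRNA to STAT3 (STAT3 shRNA) or into control lines (Ctrl shRNA), with 2 libraries in each group. STAT3 carries signals of interleukin-6 and related cytokines into the nucleus, where it acts on transcription. Both groups were grown in the same serum-containing medium. The sources used here give neither the time of harvest, nor any synchronisation, nor whether a line is 1 clone. They also do not say that libraries with the same label were grown apart, so each p-value rests on a spread that may be technical. The set was 10 listed genes, CLOCK, ARNTL (now named BMAL1), PER1, PER2, PER3, CRY1, CRY2, BHLHE40, BHLHE41 and DBP, chosen by gene name from a count table of 27452 rows. The table held 9 of them by name, and all 9 passed the filter on low counts. The row with the Ensembl ID of PER1, ENSG00000179094.16, carries the name AC129492.1 and is reported separately as PER1 by ID.

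The clock is a loop of transcription and feedback that runs in nearly every cell. CLOCK and ARNTL form a dimer that binds E-boxes and switches on the PER and CRY genes, whose proteins return to the nucleus and block the dimer. BHLHE40 and BHLHE41 (also DEC1 and DEC2) compete for the same E-boxes as repressors, and DBP is an output activator that binds D-boxes in liver genes. In an auxiliary loop the nuclear receptors NR1D1 and NR1D2 (REV-ERB alpha and beta) repress ARNTL at elements that the ROR receptors activate. Cultured cells that have not been synchronised drift out of phase with each other, so a level in bulk RNA is an average over phases, and fewer cells of a kind cannot be told apart from less RNA per cell.

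Library size and identity were read first. Total counts were 25862027 and 17694642 in the STAT3 shRNA libraries and 19283150 and 20133064 in the Ctrl shRNA libraries, so that 3 reads corresponded to 0.113 to 0.163 CPM (reads scaled to library size with TMM factors). STAT3 itself was at 34.7 and 36.1 CPM with STAT3 shRNA, against 245 and 244.3 CPM with Ctrl shRNA, a log2 fold change of -2.79 ± 0.09 (SE). Hepatocyte markers went against the cell line's label: of 9 listed, 4 were analysed here, and albumin (ALB) had 0 and 3 reads with STAT3 shRNA and 0 and 0 with Ctrl shRNA, while APOA1 had 1 and 2 reads against 0 and 0. The transcription factor HNF4A was at 7.20 and 4.95 CPM against 1.27 and 1.78 CPM, and transferrin (TF) went the other way, at 0.900 and 0.435 CPM against 2.02 and 2.14 CPM. Summed over the 4 matched markers, levels were 8.14 and 5.65 CPM with STAT3 shRNA and 3.29 and 3.92 CPM with Ctrl shRNA. The 4 matched fibroblast markers summed to 35.4 and 35.2 CPM against 52.8 and 60.6 CPM; COL1A1 was lower (15.0 and 14.3 against 38.1 and 43.2 CPM), while DCN was higher (14.6 and 15.3 against 10.4 and 11.3 CPM). The 2 endothelial markers summed to 1.16 and 1.69 CPM against 1.75 and 1.20 CPM, and the 2 leukocyte markers summed to 0.188 and 0.0544 CPM against 0.265 and 0.784 CPM. The part of these differences in the results below was not tested. A gene is called here when its Benjamini-Hochberg adjusted p from edgeR's quasi-likelihood test is under 0.05. Of 15199 genes tested, 35.5% were called, with 16.8% higher and 18.7% lower in STAT3 shRNA cells.

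Of the 9 clock genes found by name, 4 were called, CLOCK and BHLHE41 higher and CRY1 and BHLHE40 lower, which is 44.4% of them against 35.5% of all genes tested, and so near the share seen over the whole table. BHLHE41 passed the filter on low counts through the STAT3 shRNA group alone, and without it 3 of 8 were called (37.5%). Of the 4 calls, that of BHLHE40 alone held under all 14 alternative settings tried. The calls of CLOCK and CRY1 were lost under 7 and 6 of 14 settings, and that of BHLHE41 under 7 of 13. ARNTL, PER2, PER3, CRY2 and DBP were not called, and neither was PER1 by ID. The median log2 fold change of the 9 was 0.02, as it was over all genes tested (0.02), and without BHLHE41 it was -0.08.

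**Figure D1:**
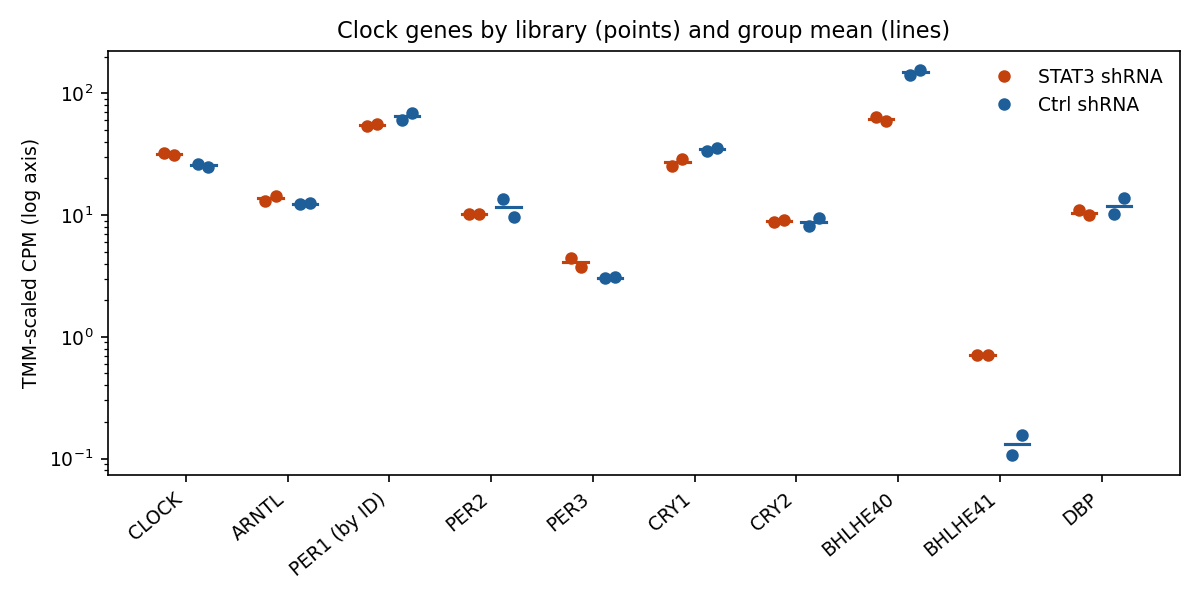
TMM-scaled CPM (log axis) of the 10 clock genes in the STAT3 shRNA (left of each pair) and Ctrl shRNA libraries, with points for libraries and lines for means. BHLHE40 stands at 63.7 and 58.8 CPM with STAT3 shRNA against 142.2 and 155.6 CPM with Ctrl shRNA, and the other members above 1 CPM lie closer together.

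The promoter letters of the called genes are shown first, because clock proteins act on each other through short elements at their start sites. Promoters came from RefSeq (GRCh38.p14), as the 250 bases before each annotated start, and all 10 clock genes were matched with 14 start sites in all (ARNTL under BMAL1). The motifs searched on both strands were the E-box CACGTG, the weaker E-prime box CACGTT, the D-box TTANGTAA, the ROR element as TAGGTCA or TGGGTCA, and the STAT element TTCNNNGAA. None of these overlaps another in letters, apart from the CACGT that E-box and E-prime box share. They occurred in 6.34%, 4.55%, 1.98%, 4.82% and 6.57% of 35116 windows of the same length. Each line below is a match in capitals, 5′ to 3′ on the gene's strand, with up to 10 bases on either side; where the match is on the other strand, the capitals are its reverse complement.
BHLHE40, E-box: tccaaCACGTGagactcatgt
BHLHE41, E-box: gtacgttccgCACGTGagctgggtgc
CRY1, E-prime box: acacttcagaAACGTGaggtgccggt
CLOCK, E-prime box: accactcgggCACGTTtggagcagcg
PER1, E-box: cacccaggtcCACGTGcgcccgtgtg
PER2, E-prime box: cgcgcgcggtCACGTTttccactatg
ARNTL, STAT element: agtgtctgtgTTCAAGGAActtaccaggc
DBP, STAT element: ggatttttttTTCCGCGAAagaagtttgc
These matches lie 245 bases before the start in BHLHE40 (chr3:4979187-4979207, plus strand), 48 in BHLHE41 (chr12:26125070-26125095, minus), 89 in CRY1 (chr12:107093623-107093648, minus) and 187 in CLOCK at its second start (chr4:55546104-55546129, minus). Those of PER1 and PER2 lie 173 and 197 bases before the start (chr17:8152562-8152587 and chr2:238288792-238288817, both minus), and those of ARNTL and DBP 153 and 74 (chr11:13276489-13276517, plus, and chr19:48637435-48637463, minus). A D-box was present in PER3, and a ROR element in CLOCK and CRY2 but in neither window of ARNTL. An E-box was present in PER1, BHLHE40 and BHLHE41, an E-prime box in CLOCK, PER2, CRY1 and CRY2, and a STAT element in ARNTL and DBP. All 4 called genes thus hold an E-box or E-prime box in a searched window, and so do PER1, PER2 and CRY2, which were not called. The 2 members with a STAT element were not called either. A match describes letters only. In GENCODE 29 all 250 bases of the BHLHE40 and CRY1 windows lie in annotated exons, as do 223 of those of BHLHE41, 59 of DBP and 31 of PER1, and 0 of the PER2 window and of the CLOCK and ARNTL windows with the matches shown.

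Of the repressors at the E-box, BHLHE40 fell and BHLHE41 was close to the limit of detection. BHLHE40 (ENSG00000134107.4; chromosome 3, 4979116 to 4985323, plus strand, in GENCODE 29 on GRCh38) is a basic helix-loop-helix repressor induced by hypoxia, serum and many cytokines. Its STAT3 shRNA libraries held 63.7 and 58.8 CPM, against 142.2 and 155.6 CPM in its Ctrl shRNA libraries. The groups are far from overlapping: the mean was 61.3 ± 3.49 CPM with STAT3 shRNA and 148.9 ± 9.50 CPM with Ctrl shRNA (SD, n = 2 each). The fall was 2.43-fold, a log2 fold change of -1.28 ± 0.09 (SE; 95% interval -1.49 to -1.07; adjusted p = 3.43e-05, edgeR). Over the alternatives the log2 fold change ran from -1.37 to -1.15, and the adjusted p (edgeR, DESeq2 or limma) from 2.79e-35 to 0.0066. The antisense gene BHLHE40-AS1 had 0.344% as many reads. Of the 17 nearest tested neighbours on the chromosome, 1 was called higher and 1 lower, with a median of 0.15.

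BHLHE41, the paralog of BHLHE40 known for its role in sleep length, had 19 and 13 reads with STAT3 shRNA and 2 and 3 reads with Ctrl shRNA, which corresponds to 0.713 and 0.707 CPM against 0.106 and 0.157 CPM. Both STAT3 shRNA libraries lie above both Ctrl shRNA libraries. Summed over the libraries and scaled to depth, 32 against 5 reads correspond to a 5.40-fold higher level, with exact binomial 95% bounds of 2.09 and 17.7 that cover counting error only. The fitted log2 fold change was 2.38 ± 0.68 (SE; adjusted p = 0.0246, edgeR). Its Ctrl shRNA libraries fell below the filter's limit, and the gene was tested only because its STAT3 shRNA libraries passed it. The filter thus favoured a difference in this gene. The call was lost when any 1 of the 4 libraries was left out (adjusted p = 0.0927 to 0.201), in DESeq2 (0.121) and in both FPKM fits.

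Per unit of length the pair remained unequal in both groups. Deposited FPKM (fragments per kilobase of transcript, scaled to library depth) of BHLHE40 were 23.1 and 20.8 with STAT3 shRNA and 48.6 and 51.6 with Ctrl shRNA, while those of BHLHE41 were 0.38 and 0.21 against 0.03 and 0.04.

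The activators CLOCK and ARNTL showed small differences. CLOCK (ENSG00000134852.15; chromosome 4, 55427903 to 55547138, minus strand), which pairs with ARNTL and also acetylates histones, was at 32.6 and 31.3 CPM with STAT3 shRNA and at 26.4 and 24.8 CPM with Ctrl shRNA. These values do not overlap. The rise was 1.25-fold, or 0.32 ± 0.10 on the log2 scale (SE; 95% interval 0.09 to 0.55; adjusted p = 0.0365, edgeR). The call was lost without either STAT3 shRNA library (adjusted p = 0.291 and 0.194), in DESeq2 (0.133), and with FPKM. It was also lost when each library's trend along GC content was removed, where the log2 fold change was 0.13 (adjusted p = 0.304, edgeR). The longest CLOCK transcript has 37.2% GC, against a median of 48.7% over tested genes. Log2 fold changes fell with GC content over all tested genes (Spearman rho -0.339, across genes that are not independent). Libraries of the same group also differed along GC content. The rho was -0.446 for Ctrl shRNA replicate 1 minus 2 and 0.121 for STAT3 shRNA replicate 1 minus 2. CLOCK shares 25495 bases with TMEM165 on the opposite strand, which had 249.2% as many reads. No source used here says whether counting took strand into account.

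ARNTL, the partner of CLOCK and the one member whose loss alone stops the clock in mice, was at 13.1 and 14.3 CPM with STAT3 shRNA and at 12.2 and 12.7 CPM with Ctrl shRNA. The libraries did not overlap, but the log2 fold change of 0.14 ± 0.14 (SE; 95% interval -0.18 to 0.46) was not called (adjusted p = 0.470, edgeR). In FPKM the gene was at 6.85 and 8.28 with STAT3 shRNA against 5.56 and 4.71 with Ctrl shRNA, a larger difference that also missed the threshold (adjusted p = 0.106 in limma on log2(FPKM + 1)). Among its 20 nearest tested neighbours, 11 were called higher and 1 lower, with a median log2 fold change of 0.43.

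The cryptochromes are the strongest repressors of the CLOCK and ARNTL dimer. CRY1 (ENSG00000008405.12; chromosome 12, 106991364 to 107093829, minus strand) was at 25.2 and 29.1 CPM with STAT3 shRNA and at 33.9 and 35.5 CPM with Ctrl shRNA. It fell 1.28-fold, a log2 fold change of -0.36 ± 0.11 (SE; 95% interval -0.61 to -0.11; adjusted p = 0.0322, edgeR). The call held with both GC offsets, where the change was larger (-0.56 and -0.55), and was lost without either STAT3 shRNA library (adjusted p = 0.365 and 0.0901), with upper-quartile scaling (0.0595), in DESeq2 (0.0573) and with FPKM. CRY2 was at 8.78 and 9.13 CPM with STAT3 shRNA, inside the 8.17 and 9.46 CPM seen with Ctrl shRNA, and its log2 fold change was 0.02 (95% interval -0.35 to 0.40; adjusted p = 0.933, edgeR).

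The period genes carry the inhibitory complex together with the cryptochromes. PER1 by ID (chromosome 17, 8140472 to 8156506, minus strand), which cyclic AMP and glucocorticoids also induce directly, was at 53.6 and 55.6 CPM with STAT3 shRNA and at 60.6 and 68.8 CPM with Ctrl shRNA. Its log2 fold change of -0.25 ± 0.10 (SE) missed the threshold after adjustment (adjusted p = 0.0767, edgeR), passed it without Ctrl shRNA replicate 1 (0.00202) and turned to 0.05 with the GC offset. The longest PER1 transcript has 62.7% GC, the highest of the 10 clock genes. PER1 shares 5691 bases on the same strand with a protein-coding gene named AC129492.4, which had 10.3% as many reads.

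PER2 had 10.1 and 10.2 CPM with STAT3 shRNA and 13.6 and 9.67 CPM with Ctrl shRNA. The Ctrl shRNA libraries bracket the others, and the difference was -0.20 ± 0.19 on the log2 scale (SE; 95% interval -0.62 to 0.22; not called, adjusted p = 0.441, edgeR). Most tested genes around it on chromosome 2 were called lower: of the 20 nearest tested neighbours, over 3.50 Mb, 15 were called lower and 1 higher, with a median log2 fold change of -0.86. PER3, the member least needed for rhythm in mice, had 4.46 and 3.75 CPM with STAT3 shRNA and 3.02 and 3.09 CPM with Ctrl shRNA. Its log2 fold change of 0.43 ± 0.24 (SE; 95% interval -0.12 to 0.98) was not called (adjusted p = 0.197, edgeR).

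DBP, a PAR-domain bZIP activator whose transcript swings widely over the day in rodent liver, was at 10.9 and 10.0 CPM with STAT3 shRNA and at 10.1 and 13.7 CPM with Ctrl shRNA. The groups overlap, and the difference was -0.19 ± 0.18 on the log2 scale (SE; 95% interval -0.59 to 0.22; not called, adjusted p = 0.456, edgeR). DBP shares 688 bases with SPHK2 on the opposite strand, which had 149.9% as many reads.

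**Figure D2:**
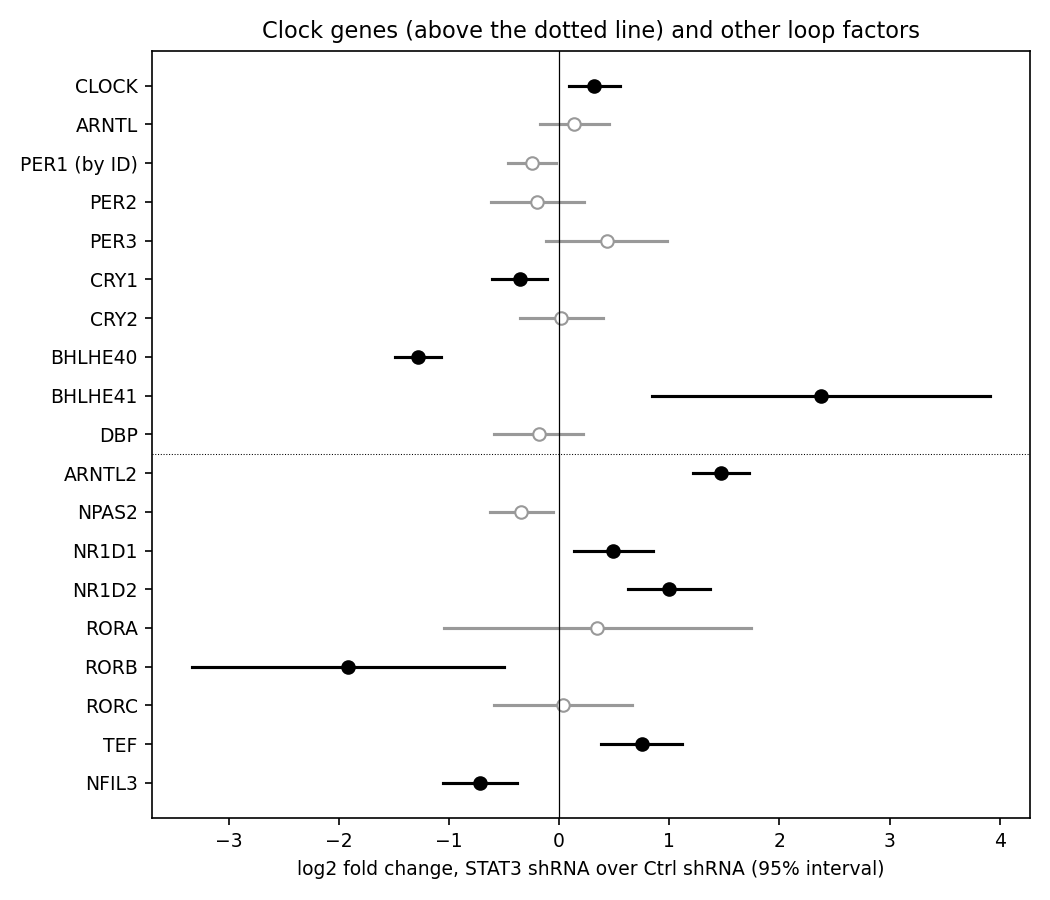
Log2 fold changes (STAT3 shRNA over Ctrl shRNA) with 95% intervals from the edgeR fit, for the 10 clock genes above the dotted line and 9 other tested loop factors below it. Filled points were called at an adjusted p under 0.05, with BHLHE40 at -1.28 and ARNTL2 at 1.47 farthest from 0 relative to their intervals.

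Per length, BHLHE40 was the most abundant of the 10 clock genes in both groups, followed by PER1 by ID (16.99 and 15.1 FPKM with STAT3 shRNA, 19.3 and 25.3 FPKM with Ctrl shRNA) and CRY1 (10.6 and 12.3 against 13.1 and 13.3 FPKM). DBP had 7.72 and 6.64 FPKM with STAT3 shRNA against 7.47 and 10.2 FPKM with Ctrl shRNA. Next in Ctrl shRNA were ARNTL, CRY2 and CLOCK, between 2.95 and 6.45 FPKM, whose values overlap so that their order is not set. With STAT3 shRNA, ARNTL overlapped DBP, and CRY2 (2.55 and 3.68 FPKM) lay below CLOCK (5.30 and 4.92 FPKM). PER2, PER3 and BHLHE41 were lowest in both groups, with PER2 at 2.08 and 1.75 FPKM against 2.21 and 1.69 FPKM, and PER3 at 1.10 and 1.0 FPKM against 1.17 and 1.53 FPKM.

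The deposited counts and FPKM differed for some members. Dividing reads by FPKM and by library depth gives the transcript length that the tables imply, here scaled to the median gene of each library. The highest of the 4 implied lengths exceeded the lowest by a median of 1.14 times over 12200 genes with at least 1 FPKM in every library, and by more than 2 times in 2.73% of them. For BHLHE40, CRY1, DBP and PER2 the ratio was 1.06, 1.09, 1.17 and 1.21. For CLOCK it was 2.30, with 6.27 and 6.49 kb in the STAT3 shRNA libraries and 8.73 and 3.79 kb in the Ctrl shRNA libraries. CRY2 had 3.51 and 2.53 kb against 1.71 and 1.89 kb, and PER3 had 4.13 and 3.82 kb against 2.52 and 1.99 kb.

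With FPKM in place of counts the sign changed for CRY2 and PER3. The log2 fold change of CRY2 was 0.02 in counts and -0.51 in log2(FPKM + 1), and that of PER3 was 0.43 and -0.19, none of them called. In CRY2 and PER3 both STAT3 shRNA libraries imply a longer transcript than both Ctrl shRNA libraries, while for CLOCK the 2 Ctrl shRNA libraries lie on either side. Whether isoform use, the authors' length estimates or both differ was not tested. For PER1 by ID the implied length was 3.21 and 3.76 kb against 3.06 and 2.68 kb. In GENCODE 29 the longest transcript named AC129492.1 has 1804 bases, and that gene's own ID stands in the table under another name, whereas the longest PER1 transcript has 4707 bases. The name AC129492.1 is therefore taken here as a naming error on the PER1 row, 1 of 120 rows with a clone-type name whose ID has a gene symbol in GENCODE 29.

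**Figure D3:**
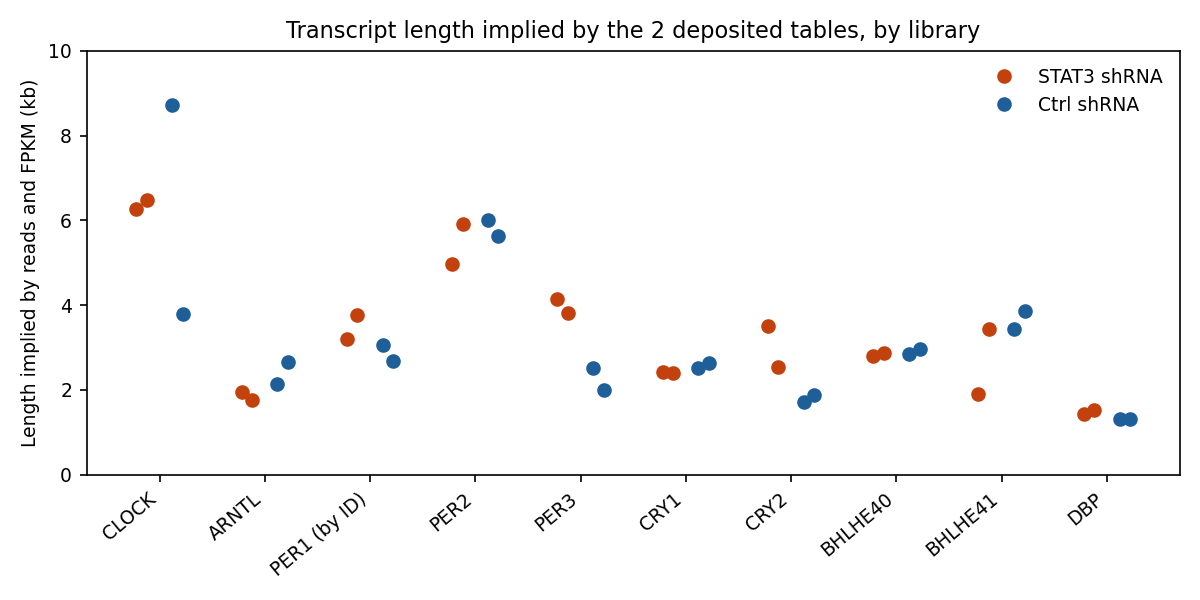
Transcript length in kb implied by reads and FPKM for the 10 clock genes, by library, with STAT3 shRNA left of Ctrl shRNA. CLOCK spreads from 3.79 to 8.73 kb, and CRY2 and PER3 imply longer transcripts with STAT3 shRNA, while BHLHE40 stays between 2.81 and 2.97 kb.

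The wider loop was described from a list, chosen with earlier results of these data known, of 12 other factors. Of these, 9 were tested, and 4 rose, 2 fell and 3 did not pass, 66.7% against 35.5% of all genes tested, with a median log2 fold change of 0.35 against 0.02. Among the falls, RORB passed the filter on low counts through the Ctrl shRNA group alone, so the filter favoured a difference in it. Without it 5 of 8 were called (62.5%), with a median log2 fold change of 0.42. ARNTL2, the paralog of ARNTL that can also pair with CLOCK, was at 52.2 and 60.3 CPM with STAT3 shRNA and at 21.1 and 19.6 CPM with Ctrl shRNA. It rose 2.77-fold (log2 fold change 1.47 ± 0.11, SE; adjusted p = 4.79e-05, edgeR), and the call held under all 14 alternatives. Of its own 20 nearest tested neighbours 10 were called higher and 1 lower, with a median of 0.33. Per length, ARNTL2 stood at 2.37 and 2.09 times the FPKM of ARNTL in the STAT3 shRNA libraries, against 0.971 and 1.07 times in the Ctrl shRNA libraries. NPAS2, the paralog of CLOCK, was at 13.6 and 13.6 CPM with STAT3 shRNA and at 16.7 and 17.9 CPM with Ctrl shRNA (log2 fold change -0.34; adjusted p = 0.0644, edgeR), not called except with the GC offsets and without Ctrl shRNA replicate 1.

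Both REV-ERB receptors rose. NR1D2 was at 29.6 and 30.6 CPM with STAT3 shRNA and at 17.9 and 12.3 CPM with Ctrl shRNA, a rise (log2 fold change 1.0 ± 0.16, SE; adjusted p = 0.00201, edgeR) that was called under all 14 alternatives. NR1D1 was at 10.9 and 10.8 CPM against 8.06 and 7.37 CPM (log2 fold change 0.49 ± 0.16, SE; adjusted p = 0.039, edgeR), a call lost under 6 alternatives, among them without either STAT3 shRNA library and without Ctrl shRNA replicate 2 (adjusted p = 0.206, 0.192 and 0.0769). NR1D1 lies tail to tail with THRA, which shares 1081 bases on the opposite strand and had 880.3% as many reads, so its value is uncertain where strand was not used. NR1D2 shares 1332 bases with NKIRAS1 on the opposite strand, which had 23.8% as many reads. Of the 20 nearest tested neighbours of NR1D2, 9 were called higher and 1 lower, with a median log2 fold change of 0.26. The second annotated start of NR1D2 held more of the searched motifs than any other window of a clock gene or loop factor here. They are a D-box, an E-box, a ROR element and another E-box, in capitals in this order (chr3:23945871-23946120, plus strand, GRCh38.p14).
NR1D2: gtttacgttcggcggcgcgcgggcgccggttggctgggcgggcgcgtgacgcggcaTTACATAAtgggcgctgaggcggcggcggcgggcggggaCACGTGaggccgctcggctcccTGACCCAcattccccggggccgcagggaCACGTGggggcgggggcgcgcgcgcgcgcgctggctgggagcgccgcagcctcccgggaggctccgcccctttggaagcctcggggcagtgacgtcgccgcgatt
CLOCK: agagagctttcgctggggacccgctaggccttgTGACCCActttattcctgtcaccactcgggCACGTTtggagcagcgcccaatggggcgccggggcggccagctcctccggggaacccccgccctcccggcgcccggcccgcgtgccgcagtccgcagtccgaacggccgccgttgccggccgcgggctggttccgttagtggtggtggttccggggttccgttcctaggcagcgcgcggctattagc
The second line is the window of the second annotated start of CLOCK (chr4:55545933-55546182, minus strand), shown for comparison with its ROR element and E-prime box in capitals.

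The bZIP factors that share the D-box moved in opposite directions. TEF, an activator related to DBP, was at 10.6 and 11.6 CPM with STAT3 shRNA and at 6.52 and 6.64 CPM with Ctrl shRNA. It rose 1.68-fold (log2 fold change 0.75 ± 0.16, SE; adjusted p = 0.00754, edgeR), a call lost without STAT3 shRNA replicate 2 (adjusted p = 0.0761). NFIL3, the repressor at the same element, fell to 8.29 and 8.86 CPM with STAT3 shRNA, against 14.4 and 13.8 CPM with Ctrl shRNA (log2 fold change -0.72 ± 0.15, SE; adjusted p = 0.00592, edgeR), which was lost without STAT3 shRNA replicate 1 (adjusted p = 0.0568) and with FPKM. DBP itself overlapped between the groups. The FPKM ratio of TEF to NFIL3 was 0.652 and 0.996 in the STAT3 shRNA libraries and 0.199 and 0.207 in the Ctrl shRNA libraries. In reads the ratio was 1.28 and 1.31 against 0.454 and 0.481. The length implied for TEF, not scaled to the median gene, was 3.6 and 2.4 kb with STAT3 shRNA against 4.1 and 4.1 kb, so its FPKM and reads differ. HLF, the remaining PAR bZIP factor, had 5 and 6 reads against 1 and 0 and was not tested. The other fall was of RORB, named here after its values were seen, with 6 and 3 reads against 12 and 17, and it was lost under 9 of 13 alternatives.

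**Figure D4:**
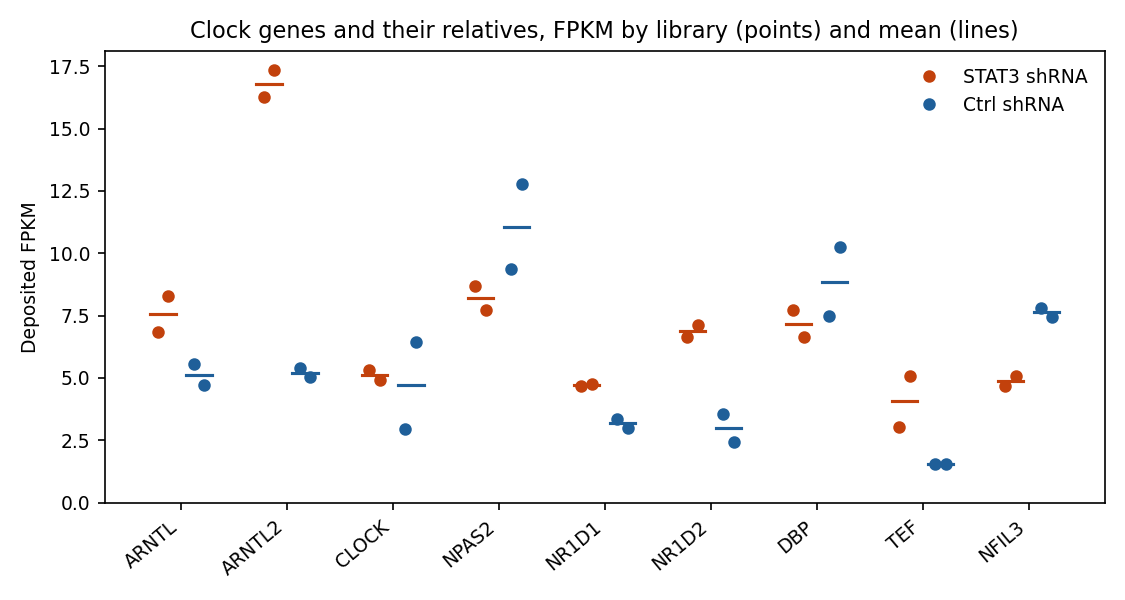
Deposited FPKM of clock genes and related factors, with STAT3 shRNA libraries left of Ctrl shRNA libraries and lines for means. ARNTL2 is at 16.3 and 17.3 FPKM with STAT3 shRNA against 5.40 and 5.02 FPKM with Ctrl shRNA, while DBP and CLOCK overlap between the groups.

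Enzymes that modify clock proteins and textbook outputs of the clock gave mixed counts. Of 17 listed modifiers, 15 were tested, and 4 rose, 2 fell and 9 did not pass (40% against 35.5% of all genes; median 0.12). The casein kinases that mark PER proteins for decay were both lower, CSNK1E at 82.8 and 74.3 CPM with STAT3 shRNA against 110.8 and 139.1 CPM with Ctrl shRNA, and CSNK1D at 104.3 and 102.2 CPM against 140.9 and 145.7 CPM. Their log2 fold changes were -0.67 and -0.47 (adjusted p = 0.00296 and 0.00239, edgeR). The fall of CSNK1D was lost without STAT3 shRNA replicate 2 and with FPKM, and the gene overlaps SLC16A3 on the opposite strand, which had 280.2% as many reads. PRKAA1, a subunit of the kinase AMPK that marks cryptochromes for decay in mice, rose by 0.56 on the log2 scale, and SIRT1, a deacetylase of PER2 and ARNTL, by 0.63 (adjusted p = 0.00204 and 0.00257, edgeR), each under all 14 alternatives. CSNK2B, the regulatory subunit of casein kinase 2, rose by 0.36 (adjusted p = 0.00859, edgeR), a call lost without either STAT3 shRNA library (adjusted p = 0.145 and 0.0951).

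Of 12 listed outputs, 10 were tested, and 2 rose, 3 fell and 5 did not pass (50% against 35.5% of all genes; median -0.08). POR, the electron donor of cytochrome P450 enzymes, was at 59.5 and 60.4 CPM with STAT3 shRNA and at 100.4 and 107.7 CPM with Ctrl shRNA (log2 fold change -0.80 ± 0.09, SE; adjusted p = 0.000265, edgeR). WEE1, a cell cycle kinase under E-box control in mouse liver, was at 67.6 and 76.7 CPM against 51.1 and 52.6 CPM (0.48 ± 0.10, SE; adjusted p = 0.0055, edgeR), lost with the GC offset and without STAT3 shRNA replicate 2. TSC22D3, a glucocorticoid-induced gene, and CDKN1A, a cell cycle inhibitor that NR1D1 represses in mouse liver, fell by 0.54 and 0.38 on the log2 scale (adjusted p = 0.00766 and 0.034, edgeR), and ALAS1, the first enzyme of heme synthesis, rose by 0.25 (0.0474). Without either STAT3 shRNA library the calls of TSC22D3, CDKN1A and ALAS1 were lost. That of CDKN1A did not hold under 8 of 14 settings, which include leaving out Ctrl shRNA replicate 2 (adjusted p = 0.0712, edgeR) and both GC offsets, where the log2 fold change was -0.19 (0.122 and 0.115). That of ALAS1 was also lost with RLE scaling (0.0602), with no filter (0.0698), with the replicate block and in DESeq2 (0.117), and that of TSC22D3 with FPKM (0.338 and 0.335 in limma). The call of POR held under all 14 alternatives. CYP7A1 had 1 and 1 reads against 0 and 0, and CYP2A6 had 0 in every library.

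**Figure D5:**
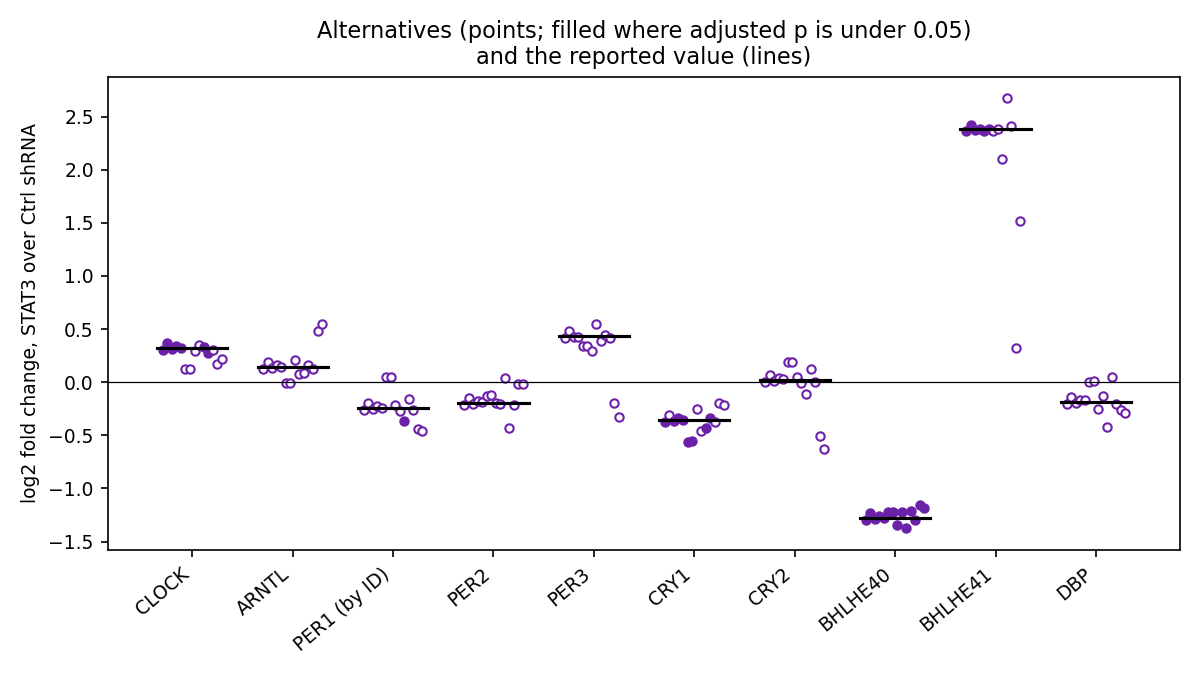
Log2 fold changes (STAT3 shRNA over Ctrl shRNA) of the 10 clock genes under each alternative setting, as points filled where the adjusted p was under 0.05, with the reported value as a line. BHLHE40 lies between -1.37 and -1.15 with every point filled, while CLOCK, CRY1 and BHLHE41 lose the call under several settings, and ARNTL, PER1, PER2, PER3, CRY2 and DBP have points on both sides of 0.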

How the data were processed

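RNA-seq was compared between 2 STAT3 shRNA and 2 Ctrl shRNA libraries, grouped by sample titles. One table the authors deposited holds raw read counts and another holds FPKM, per the file headers. Which aligner, counter, annotation, build and strand setting made them is not given in the sources used here; the 2 libraries within each group differed by more than sampling noise. Columns named "Si" were taken as STAT3 shRNA, since the labels hold no other group besides Ctrl. Clock genes and lists were chosen with earlier results of these data known.

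The test was the two-sided quasi-likelihood test of edgeR 4.0.16 (R 4.3.3; glmQLFit, glmQLFTest) on counts, with TMM scaling, the filterByExpr filter and group as covariate. P-values were adjusted by Benjamini-Hochberg over 15199 genes, and the threshold was 0.05. CPM are TMM-scaled. SE are from the quasi-likelihood F. Named genes were STAT3, the 10 clock genes, paralogs and up to 5 called genes of each wider list with the smallest p. Positions, GC content and overlaps are from GENCODE 29, where 25996 IDs were found. Near-identical copies were sought with blastn 2.17.0 (95% identity over 50% of the longest transcript), and none was found for the clock genes and other loop factors. Alternatives used RLE and upper-quartile scaling, other filters, the replicate block, a GC offset, leaving out each library, DESeq2 1.42.0, limma 3.58.1 on log2(FPKM + 1) and log2(FPKM + 0.1), and a threshold of 0.01. The edgeR code was tested on simulated data. The counting interval treats reads as independent, which PCR copies are not.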

Additional observations from a re-analysis of the deposited data

How the results depend on the processing

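With 1 library left out, the genes called ranged from 2527 to 7291 (5396 with all libraries), clock genes by name from 1 to 3 (4 with all), other loop factors from 3 to 6 (6 with all), modifiers from 3 to 9 (6 with all) and outputs from 1 to 6 (5 with all). The lowest counts came without STAT3 shRNA replicate 1 or 2. With limma on log2(FPKM + 1) and on log2(FPKM + 0.1) the counts were 2535 and 2494 genes, 1 and 1 clock genes, 3 and 3 loop factors, and 3 and 3 outputs. DESeq2 called 1 clock gene. At a threshold of 0.01 there were 2897 genes, 1 clock gene and 3 outputs. In each of these settings the 1 clock gene was BHLHE40. The STAT3 call held under every alternative.

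Uncalled members changed sign under some settings, and the cause was not tested. With the GC offset, and with it and the replicate block, log2 fold changes were -0.012 and -0.0091 for ARNTL, 0.053 and 0.053 for PER1 by ID, and 0.00019 and 0.0093 for DBP. With FPKM (pseudocounts 1 and 0.1) they were -0.19 and -0.32 for PER3 and -0.51 and -0.63 for CRY2. With 1 library left out they ran from -0.43 to 0.036 for PER2, from -0.11 to 0.13 for CRY2 and from -0.42 to 0.045 for DBP.

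Equal replicate numbers gave no sign of pairing between libraries (correlation of deviations -0.0242 across genes), though this value alone cannot settle it. With the replicate block 5447 genes and 4 clock genes were called, and the calls of RORB (adjusted p = 0.0583, edgeR) and ALAS1 (0.0729) were lost. Depth limits BHLHE41, HLF, CIART, RORA and RORB, which have at most 19 reads in a library.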
